A study of Mus musculus with 6 samples.

Results

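RNA levels of 6 genes that encode cyclin-dependent kinase (CDK) inhibitors were compared between young and old mouse hearts: Cdkn1a, Cdkn1b, Cdkn2a, Cdkn2b, Cdkn2c and Cdkn2d. They were taken by name from a count table of 44200 gene models, in which each of the 6 names occurred once. Total RNA of heart tissue had been sequenced from male C57BL/6 mice on normal chow, 3 at 2 months of age (young) and 3 at 22 months (old), with no treatment named. Each library came from a separate animal, and libraries are called young 1 to 3 and old 1 to 3 after their labels. The extraction text in the labels names NRVMs, another sample type, while every other label says heart tissue.

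CDK inhibitors are small proteins that hold the cell cycle in check. The INK4 proteins, encoded by Cdkn2a (p16Ink4a), Cdkn2b (p15Ink4b), Cdkn2c (p18Ink4c) and Cdkn2d (p19Ink4d), bind Cdk4 and Cdk6 and keep them from pairing with D-type cyclins, so that the retinoblastoma protein stays active and E2F target genes stay off. The CIP/KIP proteins, encoded by Cdkn1a (p21Cip1) and Cdkn1b (p27Kip1), bind complexes of cyclins with several CDKs. Heart muscle cells leave the cell cycle soon after birth, p21 is a direct target of p53, and p16Ink4a is widely used as a marker of cellular senescence.

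The libraries held 13673856 to 15583364 counted reads. Cardiomyocyte markers were abundant in every library, with a summed level of 8 genes of 52685 to 59499 CPM (reads of a gene scaled to the library's size, here with TMM factors) in young and 44730 to 50338 in old hearts. On the first principal component old 1 (16.3) lay nearer to the young libraries (between −40.1 and −34.7) than old 2 and old 3 did (47.8 and 49.5), so results are also given without it where it mattered. Mitochondrial transcripts took 25.1 to 26.8% of counts in young and 18.4 to 27.6% in old libraries. Old was compared with young by edgeR's quasi-likelihood test with Benjamini-Hochberg adjustment over 14413 genes that passed a filter on low counts, and a gene was called at an adjusted p under 0.05. By this rule 2174 genes (15.1%) were called, 1257 higher (8.72%) and 917 lower (6.36%) in old hearts. With library totals alone in place of TMM factors 1400 were called higher and 624 lower, and the median log2 fold change of all genes was 0.06 in place of 0.02. In the edgeR fit with TMM factors but without old 1, 5570 of 14702 genes tested were called. Calls gained without old 1 are to be read against that number.

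The INK4 genes with the lowest RNA level were higher in old hearts, while other members of both families were lower. Cdkn2a rose 4.18-fold, and its neighbour Cdkn2b had 47 reads in old against 13 in young hearts. Cdkn1b fell by 0.61 and Cdkn2d fell by 0.61 on the log2 scale. Cdkn1a, the most abundant of the 6, and Cdkn2c were not called. Of the 6 genes 5 passed the filter on low counts. Of these 5, 3 were called, 1 higher and 2 lower, where 15.1% of all genes tested were called. The count of 3 called members carries a limit, because Cdkn2a reached the filter through the old libraries alone and had to differ to be tested. The old libraries lay beyond all young ones for 4 of the 6 genes (Cdkn1b, Cdkn2a, Cdkn2b and Cdkn2d). The same held for 37.3% of all genes tested. Cdkn2b did not pass the filter, so it is not among the genes behind that share. The limit of Cdkn2a holds for this count as well.

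**Figure D1:**
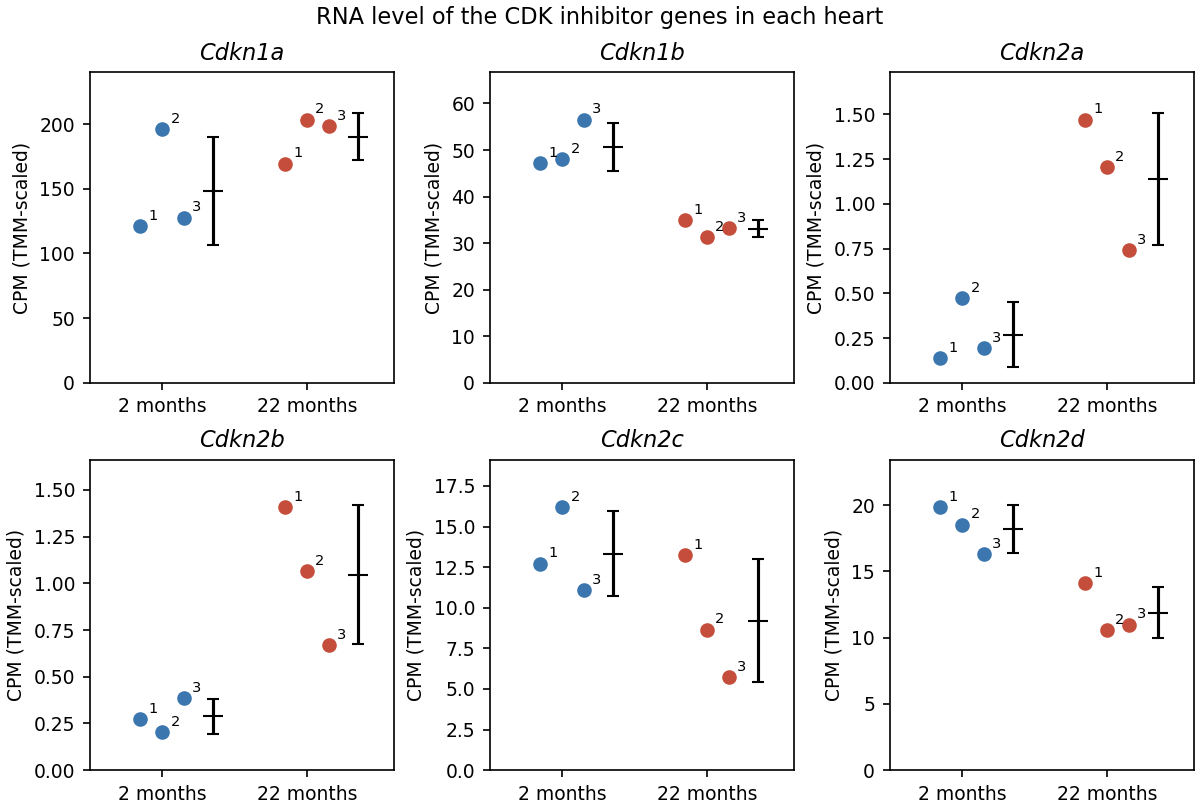
TMM-scaled CPM of the 6 genes (vertical axes, each from 0) in the 3 hearts of 2-month-old and the 3 hearts of 22-month-old mice, numbered by replicate, with mean and SD (n = 3). Old hearts lie above young ones for Cdkn2a and Cdkn2b and below them for Cdkn1b and Cdkn2d, and the ages overlap for Cdkn1a and Cdkn2c.

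Promoter sequences are shown for the pair of genes that were higher in old hearts, for Cdkn1b, which was lower, and for Cdkn1a, whose upstream promoter holds the p53 element its regulation is known for. The RefSeq promoter windows (GRCm38.p6) reach from 250 bases before to 50 bases after a transcript start, and 9 windows matched the 6 genes. The 250 bases before the start are printed 5′ to 3′ on the gene's own strand, and capitals mark motif matches. Of 32851 mouse windows of this length 35.7% hold a GC box (GGGCGG on either strand) and 1.79% a cyclic AMP response element (TGACGTCA). A p53 element with at most 1 mismatch to its consensus of 20 bases, both cores intact, was in 0.0548%.
Cdkn2a, before the p16Ink4a start, minus strand, chr4:89282193-89282442: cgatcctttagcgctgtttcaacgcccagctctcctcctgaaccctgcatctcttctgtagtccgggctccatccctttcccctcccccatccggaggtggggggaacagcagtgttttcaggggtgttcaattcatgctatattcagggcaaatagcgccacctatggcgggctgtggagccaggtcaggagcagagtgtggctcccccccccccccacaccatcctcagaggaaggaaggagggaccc
Cdkn2a, before the p19Arf start, minus strand, chr4:89294620-89294869: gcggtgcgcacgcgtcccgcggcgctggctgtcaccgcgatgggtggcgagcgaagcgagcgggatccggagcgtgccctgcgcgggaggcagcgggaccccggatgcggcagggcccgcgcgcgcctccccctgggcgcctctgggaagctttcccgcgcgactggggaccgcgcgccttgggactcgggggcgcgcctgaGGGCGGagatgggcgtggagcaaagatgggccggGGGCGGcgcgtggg
Cdkn2b, minus strand, chr4:89311033-89311282: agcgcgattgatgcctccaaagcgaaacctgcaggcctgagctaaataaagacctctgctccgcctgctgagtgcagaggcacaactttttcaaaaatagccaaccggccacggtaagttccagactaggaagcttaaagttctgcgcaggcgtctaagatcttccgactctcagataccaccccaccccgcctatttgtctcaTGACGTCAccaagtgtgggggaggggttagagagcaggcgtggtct
Cdkn1b, plus strand, chr6:134920151-134920400: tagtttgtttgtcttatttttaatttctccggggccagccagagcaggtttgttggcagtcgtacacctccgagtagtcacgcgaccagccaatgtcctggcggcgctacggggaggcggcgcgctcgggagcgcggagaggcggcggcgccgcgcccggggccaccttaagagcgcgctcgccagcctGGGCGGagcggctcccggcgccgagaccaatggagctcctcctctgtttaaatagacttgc
Cdkn1a, upstream start, plus strand, chr17:29090729-29090978: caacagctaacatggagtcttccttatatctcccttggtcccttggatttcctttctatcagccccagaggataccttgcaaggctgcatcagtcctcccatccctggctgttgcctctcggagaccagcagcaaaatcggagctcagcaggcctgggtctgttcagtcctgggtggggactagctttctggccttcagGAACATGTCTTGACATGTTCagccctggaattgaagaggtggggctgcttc

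In the Cdkn1a sequence the p53 element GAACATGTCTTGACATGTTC lay 51 to 32 bases before the start, with 1 mismatch. The exact consensus was in 0.00913% of all windows and in none of the 9, and the mismatch was allowed after that search had been seen. The window at the other Cdkn1a start held 2 GC boxes and no p53 element. Cdkn2b had a cyclic AMP response element 46 to 39 bases before its start and a GC box at bases 5 to 10 after it, beyond the printed stretch. The p19Arf start of Cdkn2a had 3 GC boxes in its window, 2 of them in the printed stretch, and the p16Ink4a start had 1, at bases 24 to 29 after the start. Cdkn1b had 1 GC box, and the Cdkn2d window, not printed, had 5. The windows of Cdkn2c held 4 GC boxes at one start and an E-box (CACGTG, in 7.15% of all windows; no overlap with another motif) at the other. E2F sites (TTTCGCGC or TTTGGCGC, 0.813% of windows) and FoxO sites (GTAAACA, 3.65%) were searched on both strands and matched none of the 9. These matches describe letters in the windows, and the RNA data hold no measurement of binding.

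Cdkn2a lies on chromosome 4 (GRCm38, chr4:89274471-89294653, minus strand, ENSMUSG00000044303) and encodes both p16Ink4a and, from another first exon and reading frame, p19Arf, which blocks Mdm2 and so stabilises p53. It had 2, 7 and 3 reads in young 1, 2 and 3 and 24, 17 and 10 reads in old 1, 2 and 3. These are 0.137, 0.475 and 0.193 CPM in young and 1.47, 1.21 and 0.742 CPM in old hearts. All 3 old hearts were above all young hearts, old 1 highest, and young 2 was the highest of the young. The mean went from 0.268 ± 0.181 to 1.14 ± 0.369 CPM (SD, n = 3 each), a log2 fold change of 2.06 ± 0.55 (SE; edgeR adjusted p = 0.0355). Summed over libraries, 12 reads stood against 51, a depth-scaled ratio of 4.34 (95% exact binomial interval 2.28 to 8.94, which covers counting error only).

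The call of Cdkn2a ended when any 1 library other than old 1 was left out, and a filter of at least 1 CPM in 3 libraries removed the gene. Without young 1, 2 or 3 or old 2 or 3 the edgeR adjusted p was 0.148, 0.0629, 0.149, 0.0793 and 0.0616, with log2 fold changes of 1.76, 2.72, 1.85, 2.03 and 2.29. Without old 1 the change was 1.83 with an edgeR adjusted p of 0.0416. An exact two-sided permutation test of the difference in mean log2 CPM gave p = 0.1, the smallest that 3 against 3 allow. The annotated p16Ink4a and p19Arf transcripts share 575 bases, and 277 and 320 bases belong to one or the other. Their starts lie 12461 bases apart. Reads were counted per gene, so the counts cannot be divided between p16Ink4a and p19Arf.

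Cdkn2b encodes p15Ink4b, an INK4 inhibitor that transforming growth factor beta (TGF-beta) is known to induce. It lies 11645 bases beyond the p19Arf end of Cdkn2a (chr4:89306299-89311039, minus strand, ENSMUSG00000073802). It had 4, 3 and 6 reads in young and 23, 15 and 9 reads in old 1, 2 and 3, or 0.275, 0.204 and 0.386 CPM against 1.41, 1.06 and 0.668 CPM. Every old heart was above every young heart, and the old hearts stood in the same order as for Cdkn2a. The mean was 0.288 ± 0.0921 CPM at 2 months and 1.05 ± 0.371 CPM at 22 months, and the ratio of summed reads was 3.69 (95% exact binomial interval 1.97 to 7.44).

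Cdkn2b did not pass the filter on low counts, so the comparison across all genes holds no test of it. Fitted with no filter, where 6.99% of 23978 genes were called higher, its log2 fold change was 1.82 with an edgeR adjusted p of 0.0458. DESeq2 gave 1.85 with an adjusted p of 0.0748. In the edgeR fits without young 1, 2 or 3 or old 3, in which it passed the filter, the adjusted p was 0.143, 0.159, 0.107 and 0.0557. The exact two-sided permutation test gave p = 0.1 here too. The next protein-coding genes on either side of the pair were not called. Mtap, which encodes an enzyme of methionine salvage, was at 17.4 ± 2.64 CPM in young and 14.1 ± 1.68 in old hearts (edgeR adjusted p = 0.239), and Dmrta1 on the other side had no read in any library.

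Cdkn2d encodes p19Ink4d and lies on chromosome 9 (chr9:21288410-21291407, minus strand, ENSMUSG00000096472). Its counts were 289, 273 and 253 in young and 230, 149 and 148 in old 1, 2 and 3. In CPM these were 19.9, 18.5 and 16.3 in young and 14.1, 10.6 and 11.0 in old hearts. The old hearts were all below the young ones, with old 1 nearest to them. The mean fell from 18.2 ± 1.81 to 11.9 ± 1.93 CPM, a log2 fold change of −0.61 ± 0.17 (edgeR adjusted p = 0.0387; exact two-sided permutation p = 0.1).

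Without old 1 the change of Cdkn2d was −0.76 with an edgeR adjusted p of 0.00313. The call ended when young 1, young 2, young 3, old 2 or old 3 was left out, with edgeR adjusted p values of 0.152, 0.137, 0.0850, 0.0902 and 0.123 and log2 fold changes of −0.55, −0.61, −0.71, −0.54 and −0.56. It also ended with library totals alone (−0.56, adjusted p = 0.0625). Kri1, a ribosome biogenesis gene 440 bases away on the same strand, was at 6.78 ± 0.817 CPM in young and 9.74 ± 1.22 in old hearts, a log2 fold change of 0.52 ± 0.19 that was not called (edgeR adjusted p = 0.0901).

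Cdkn2c encodes p18Ink4c and lies on chromosome 4, away from the Cdkn2a and Cdkn2b pair (chr4:109660876-109667189, minus strand, ENSMUSG00000028551). It had 12.7, 16.2 and 11.1 CPM in young and 13.2, 8.65 and 5.71 CPM in old 1, 2 and 3. Old 1 lay inside the young range, and old 2 and old 3 lay below it. Means were 13.3 ± 2.63 and 9.20 ± 3.79 CPM, and the log2 fold change of −0.53 ± 0.29 was not called (edgeR adjusted p = 0.232; exact two-sided permutation p = 0.3). The result turned on old 1, since without it the change was −0.89 with an edgeR adjusted p of 0.0125. That fit called 5570 of 14702 genes tested. Without old 3 the change was −0.28 (adjusted p = 0.524).

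Cdkn1b encodes p27Kip1, a CIP/KIP inhibitor that is known to be abundant in quiescent cells and to be removed by the ubiquitin ligase subunit Skp2 (chr6:134920401-134925513, plus strand, ENSMUSG00000003031). Its counts were 686, 709 and 878 in young and 571, 441 and 447 in old 1, 2 and 3. In CPM these were 47.1, 48.1 and 56.5 against 35.0, 31.3 and 33.2. Old hearts were tightly grouped and all below the young ones. The mean fell from 50.6 ± 5.16 to 33.1 ± 1.86 CPM, a log2 fold change of −0.61 ± 0.13 (edgeR adjusted p = 0.0157; exact two-sided permutation p = 0.1).

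Among the members that were called, Cdkn1b had the smallest adjusted p, yet its call too ended without young 1, 2 or 3 or old 3. Those fits gave edgeR adjusted p values of 0.0577, 0.0646, 0.0871 and 0.0525, with changes of −0.66, −0.65, −0.54 and −0.61. The closest neighbours on the chromosome, Gpr19 (0.26 ± 0.20, edgeR adjusted p = 0.400) and Apold1 (0.09 ± 0.26, 0.829), were not called. The third CIP/KIP gene, Cdkn1c (p57Kip2), is no member of the 6 and was looked up after their values had been seen. Its level was 55.4 ± 3.38 CPM at 2 months and 31.7 ± 2.27 at 22 months (−0.80 ± 0.12 on the log2 scale, edgeR adjusted p = 0.00494).

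Cdkn1a encodes p21Cip1, the inhibitor through which p53 is known to arrest cells (chr17:29090976-29100727, plus strand, ENSMUSG00000023067). Its counts were 1765, 2893 and 1984 in young and 2764, 2868 and 2671 in old 1, 2 and 3. It was at 121, 196 and 128 CPM in young and at 169, 203 and 198 CPM in old hearts. Young 2 stood far above the other young hearts, within the old range, so the ages overlapped. Means were 148 ± 41.5 and 190 ± 18.3 CPM, a log2 fold change of 0.36 ± 0.19 that was not called (edgeR adjusted p = 0.229; exact two-sided permutation p = 0.2).

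No setting tried brought Cdkn1a past the threshold, although without young 2 the change was 0.61 (edgeR adjusted p = 0.0881). The neighbouring splicing factor gene Srsf3 was not called either (0.41 ± 0.14, edgeR adjusted p = 0.0855), and Rab44 on the other side did not pass the filter on low counts. An uncharacterised gene model on the opposite strand shares 273 exon bases with Cdkn1a. The strand setting of the counting is not given in the sources used here, so reads over these bases cannot be told apart.

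**Figure D2:**
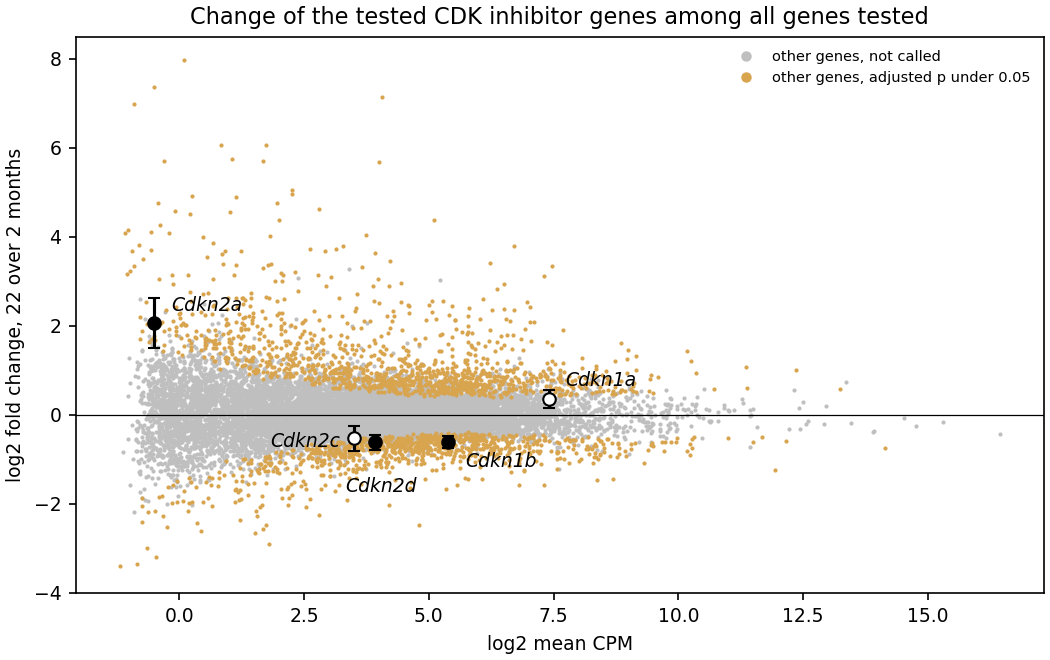
Log2 fold change of 22 over 2 months (vertical axis) against log2 mean CPM (horizontal axis) for the 14413 genes tested, called genes in orange. The 5 tested inhibitor genes carry bars of 1 SE, filled where called: Cdkn2a, at the low end of expression, is the one called higher, and Cdkn1b and Cdkn2d are called lower.

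Compared per length, Cdkn1a RNA exceeded that of every other member in all 6 hearts. CPM divided by the kilobases of merged exon (RPKM) were 41.8 ± 11.7 in young and 53.6 ± 5.16 in old hearts for Cdkn1a. Cdkn2d followed with 11.6 ± 1.15 and 7.55 ± 1.22, Cdkn1b with 11.1 ± 1.13 and 7.28 ± 0.408, and Cdkn2c with 4.96 ± 0.977 and 3.43 ± 1.41. By RPKM Cdkn2d and Cdkn1b overlapped at each age. Cdkn2a was at 0.229 ± 0.154 and 0.972 ± 0.315 RPKM and Cdkn2b at 0.207 ± 0.0663 and 0.753 ± 0.267, and these neighbours in the order overlapped at each age.

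In the FPKM values the authors deposited, the order was the same for the 5 members listed, with Cdkn1a at 64.1 ± 18.1 in young and 81.9 ± 8.55 in old hearts and Cdkn2a at 0.220 ± 0.149 and 0.929 ± 0.296. In FPKM Cdkn2d lay above Cdkn1b without overlap at each age. Cdkn2b has no FPKM value in the table used here. Even in old hearts the RNA of Cdkn2a and Cdkn2b together was a small part of the whole. Cdkn2a made up 1.33 ± 0.446% and Cdkn2b 1.03 ± 0.382% of the summed RPKM of the 6 genes, after 0.310 ± 0.153% and 0.310 ± 0.133% in young hearts. Cdkn1a held 59.1 ± 5.72% at 2 months and 72.8 ± 5.28% at 22 months. The ratio of Cdkn1a to Cdkn1b in RPKM was 3.30, 5.23 and 2.90 in young and 6.20, 8.33 and 7.66 in old 1, 2 and 3. It did not overlap between ages, nor did Cdkn1b alone, while Cdkn1a overlapped. The summed RPKM of all 6 overlapped, at 62.2 to 84.2 in young and 71.5 to 75.8 in old hearts.

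**Figure D3:**
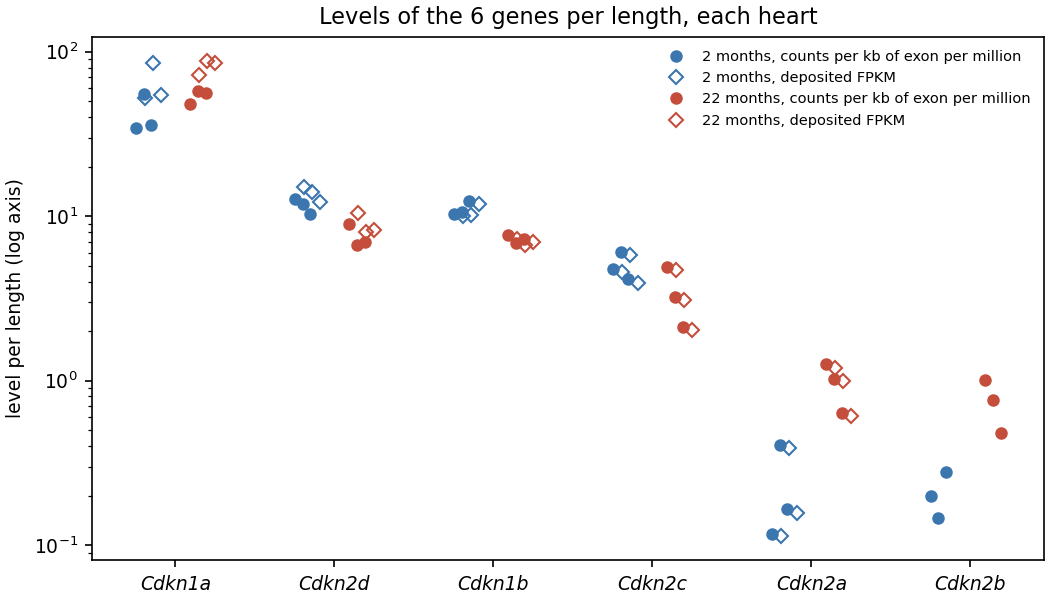
Level per length of the 6 genes in each heart on a log axis, as RPKM from the counts (filled circles) and as deposited FPKM (open diamonds), 2 months in blue and 22 months in red. Cdkn1a is highest in every heart, and Cdkn2a and Cdkn2b are lowest at both ages.

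The genes whose profile over the 6 libraries was most like that of each tested member were ranked by the root mean square (RMS) difference of centred log2 CPM among 12461 to 12462 protein-coding genes with a mean of at least 1 CPM. Closest to Cdkn2d was Tango6 (RMS 0.0271), then Ldoc1l and Gnpat. Closest to Cdkn1b was Zbtb34 (0.0463), then Zfp553 and Rhobtb3. For Cdkn1a it was Asb16 (0.0703), then Tmem154 and Rint1, and for Cdkn2c Tmem241 (0.115), then Nme7 and Arl4c. For Cdkn2a the nearest genes were farther off, Fstl4 at 0.293, Lst1 at 0.325 and Dpep2 at 0.332, with few reads behind its own profile. These distances describe 6 libraries and were not tested.

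No kinase or cyclin that the inhibitors act on was called. None of 13 tested genes of the list of G1 cyclins, their kinases and the CDK-activating kinase was called by edgeR (3 had an unadjusted p under 0.05), nor by DESeq2 or limma-voom, with a median log2 fold change of −0.07. Of these 13 genes 1 had a log2 fold change above 0, against 7432 of 14413 over all genes tested. Cdk4 was at 42.2 ± 3.72 CPM at 2 months and 40.4 ± 2.01 at 22 months (−0.06 ± 0.13, edgeR adjusted p = 0.765). Its partner kinase Cdk6 was at 1.70 ± 0.535 and 1.03 ± 0.412 CPM (−0.70 ± 0.42, 0.273). Cdk2, which p21 and p27 inhibit, changed by −0.06 ± 0.20 (0.851). Among the D-type cyclins the values were −0.48 ± 0.19 for Ccnd1 (0.121), −0.37 ± 0.16 for Ccnd2 (0.135) and −0.05 ± 0.14 for Ccnd3 (0.823). The smallest p was that of Ccna2, the S phase cyclin A2, at 2.77 ± 0.771 and 1.28 ± 0.340 CPM (−1.10 ± 0.34, 0.0587). In the edgeR fit with no filter on low counts Ccna2 was called lower (−1.12, adjusted p = 0.0461). Without old 1, 2 genes of the list were called, and both Ccna2 (−1.34, 0.0196) and Ccnd1 (−0.73, 0.00273) then passed.

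Downstream, none of 18 genes of retinoblastoma proteins, E2F factors and the DREAM complex was called by edgeR, with 2 at an unadjusted p under 0.05, 1 called by DESeq2 and 0 by limma-voom. With no filter edgeR called 2 lower, and 1 lower with upper-quartile factors or with protein-coding genes alone. The median log2 fold change was −0.01, and Rb1 was at 21.2 ± 1.27 CPM in young and 21.8 ± 5.73 in old hearts (edgeR adjusted p = 0.913). Tfdp2, a partner of E2F factors, had the smallest p (−0.48 ± 0.14, adjusted p = 0.0542, or 0.00163 without old 1). Of 20 E2F targets and proliferation genes 1 fell and 0 rose, with a median of −0.38. That gene was Top2a, a topoisomerase of dividing cells, from 5.09 ± 2.72 to 1.21 ± 0.979 CPM (−2.03 ± 0.56, edgeR adjusted p = 0.0383), and young 2 at 8.07 CPM was the highest. Its call ended without any 1 library other than old 1, with adjusted p values from 0.0583 to 0.160. Mki67, the Ki-67 gene, was at 8.85 ± 4.48 and 6.37 ± 1.09 CPM (−0.47 ± 0.33, 0.345).

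Among p53 and targets it shares with Cdkn1a, 3 of 20 genes rose and 3 fell, with a median of −0.17. Trp53 itself was at 23.1 ± 1.78 CPM in young and 24.5 ± 2.51 in old hearts (0.08 ± 0.14, edgeR adjusted p = 0.718). The death receptor gene Fas rose from 33.8 ± 2.72 to 62.4 ± 8.67 CPM (0.89 ± 0.14, 0.00586), and Bax, a gene of mitochondrial apoptosis, rose from 28.5 ± 1.33 to 47.4 ± 7.03 CPM (0.73 ± 0.14, 0.0120). Ccng1, which encodes cyclin G1, fell from 388 ± 17.1 to 228 ± 20.7 CPM (−0.77 ± 0.13, 0.00693). Mdm2, the ubiquitin ligase of p53, was at 50.2 ± 1.66 and 72.1 ± 16.0 CPM and was not called (0.52 ± 0.17, 0.0639; without old 1 0.68, 0.00111). Fas and Ccng1 were called with any 1 library left out, and Bax was not without young 1, 2 or 3 (0.0565, 0.0693 and 0.0758).

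Regulators of the INK4 locus showed 1 rise and 1 fall among 23 genes, with a median of −0.08. Ets1, a transcription factor known to activate p16Ink4a, fell from 103 ± 7.43 to 54.6 ± 7.64 CPM (−0.92 ± 0.14, edgeR adjusted p = 0.00487). Cbx7, a Polycomb protein known to repress the locus, rose from 47.6 ± 2.54 to 69.6 ± 10.6 CPM (0.55 ± 0.14, 0.0313), a call that ended without young 1, 2 or 3 or old 3 (0.142, 0.129, 0.116 and 0.0986). The Polycomb genes Ezh2 (−0.30 ± 0.22, 0.355) and Bmi1 (0.10 ± 0.13, 0.613) were not called. Of 14 FoxO factors and ubiquitin ligase genes for p21 and p27, 1 fell and 0 rose, with a median of −0.13. It was Ubac1, a ligase subunit for p27, from 71.5 ± 9.53 to 50.6 ± 6.08 CPM (−0.50 ± 0.15, 0.0497), with adjusted p values from 0.0533 to 0.199 without any 1 library other than old 1. It also missed the threshold with RLE factors (0.0503), with library totals alone (0.0899), in limma-voom (0.0531) and in both fits on FPKM (0.0653 and 0.0651).

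In the list of TGF-beta, SMAD and MYC regulators of Cdkn2b 2 of 11 genes rose and 0 fell, with a median of 0.30. Myc, whose protein is known to repress Cdkn2b, rose from 6.17 ± 2.07 to 17.0 ± 4.11 CPM (1.46 ± 0.27, edgeR adjusted p = 0.0101; 0.0538 without young 3). Smad3, a signal carrier of TGF-beta, rose from 13.0 ± 0.942 to 21.4 ± 4.74 CPM (0.72 ± 0.18, 0.0307), with 0.0790 to 0.125 without any 1 library other than old 1. Of 19 senescence-associated secretory and marker genes 7 rose and 0 fell, with a median of 0.47. The count was 3, 4 and 4 without young 1, 2 and 3 and 6 and 5 without old 2 and 3, while without old 1 it was 8 higher and 3 lower. DESeq2, and edgeR with no filter, each called 8 higher and 2 lower. The chemokine gene Ccl7 went from 0.329 ± 0.292 to 4.36 ± 1.56 CPM (3.68 ± 0.56, 0.00478), and like Cdkn2a it passed the filter on low counts through the old libraries alone. The matrix protease gene Mmp3 rose from 3.39 ± 1.16 to 28.0 ± 22.3 CPM (3.04 ± 0.53, 0.00761). Old 1 was the highest library for Ccl7 and Mmp3, as it was for Cdkn2a and Cdkn2b.

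Over the 8 lists 19 of 138 tested genes were called, 13 higher and 6 lower. Without 1 library the count was 7, 8 and 7 (young 1, 2 and 3) and 47, 14 and 10 (old 1, 2 and 3). The 47 called without old 1 were 21 higher and 26 lower. The share of genes called in a list is to be read against the share over all genes in the same fit, 15.1% with all 6 libraries. Over all genes 539, 540 and 619 were called without young 1, 2 and 3. Without old 1, 2 and 3 the numbers were 5570, 1541 and 919. These fits tested 14702 to 14849 genes.

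**Figure D4:**
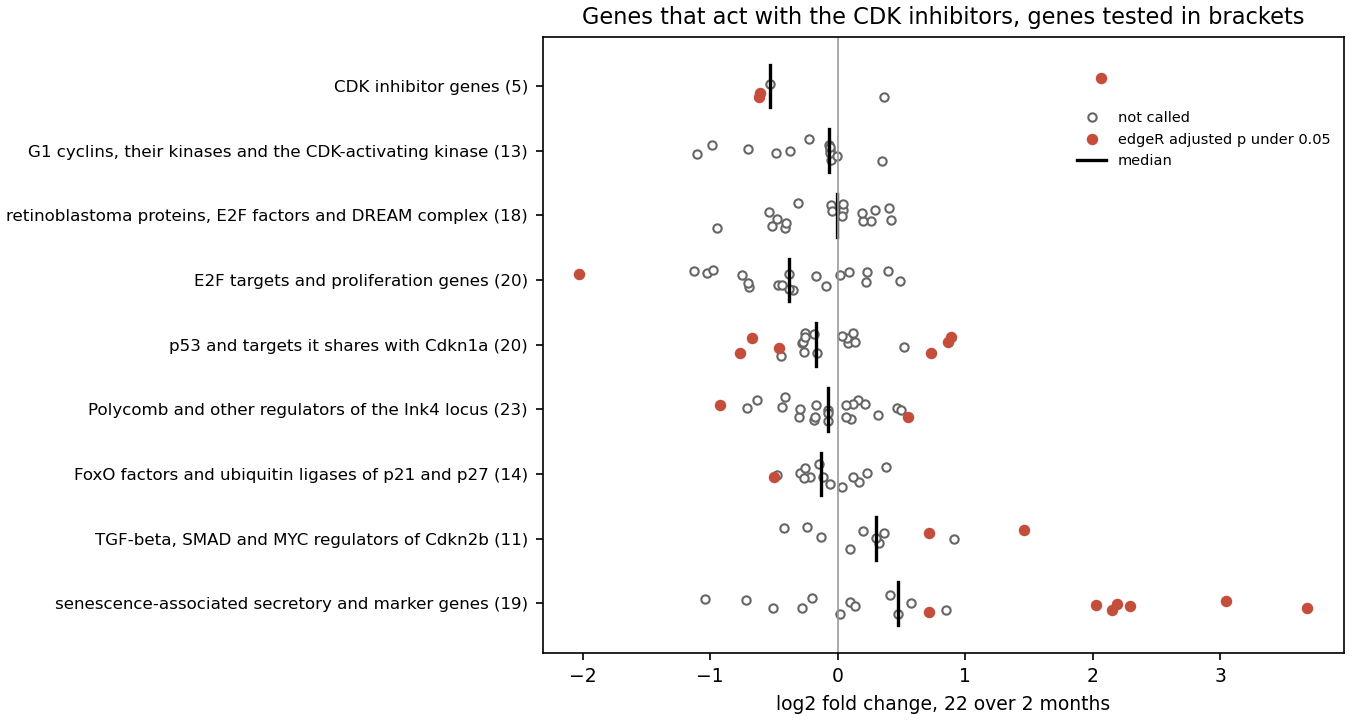
Log2 fold change of 22 over 2 months (horizontal axis) for each tested gene of the inhibitors and of 8 lists of genes that act with them, called genes filled, with the median as a black bar. The senescence list holds 7 called genes, all to the right of 0, while no gene of the G1 cyclin and kinase list or of the retinoblastoma list is called.

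Heart tissue holds several cell types, and fewer cells of a type and less RNA per cell cannot be told apart in these bulk libraries. The cardiomyocyte sums given above were lower in old hearts without overlap, with Myh6, Actc1 and Pln called lower and Myl2 called higher. Myh6 held the largest part of the sum, at 22616 ± 1821 CPM in young and 13464 ± 1616 in old hearts. Of the 8 genes 4 had a log2 fold change above 0, and Tnnt2 lay above the young hearts without a call. Summed markers of endothelial cells (8 genes) were at 1555 to 1674 CPM in young and 1111 to 1359 in old hearts. Those of macrophages and monocytes (7 of 8 genes found in the table) were at 297 to 375 in young and at 649, 407 and 408 in old 1, 2 and 3. Of these 7 genes C1qa (56.6 ± 4.69 to 132 ± 8.30 CPM) and Itgam were called higher. Cd68 lay above the young hearts without a call, and Csf1r, Cd163, Mrc1 and Lyz2 overlapped between ages. Markers of fibroblasts (8 genes, 2250 to 3012 and 1689 to 3116) and of pericytes and smooth muscle (8 genes, 1163 to 1400 and 807 to 1226) overlapped. Neutrophil markers (5 genes) summed to 1.15 to 1.67 CPM in young and 3.62 to 11.9 in old hearts, with Ly6g at 0 in every library. Lymphocyte markers (8 genes) overlapped at 3.19 to 6.05 and 4.18 to 6.83 CPM, as did those of red blood cells (5 genes, 928 to 981 and 455 to 1215), adipocytes (5 genes, 0.137 to 5.54 and 0.567 to 4.35) and mesothelium (4 genes, 6.24 to 9.42 and 6.31 to 18.9). The mesothelium sum rested on Wt1, since Msln, Upk3b and Upk1b had at most 1 read in any library. Schwann cell markers (4 genes) were at 16.3 to 19.2 and 21.5 to 41.3 CPM. The part of these shifts in the levels of the 6 inhibitor genes was not tested.

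**Figure D5:**
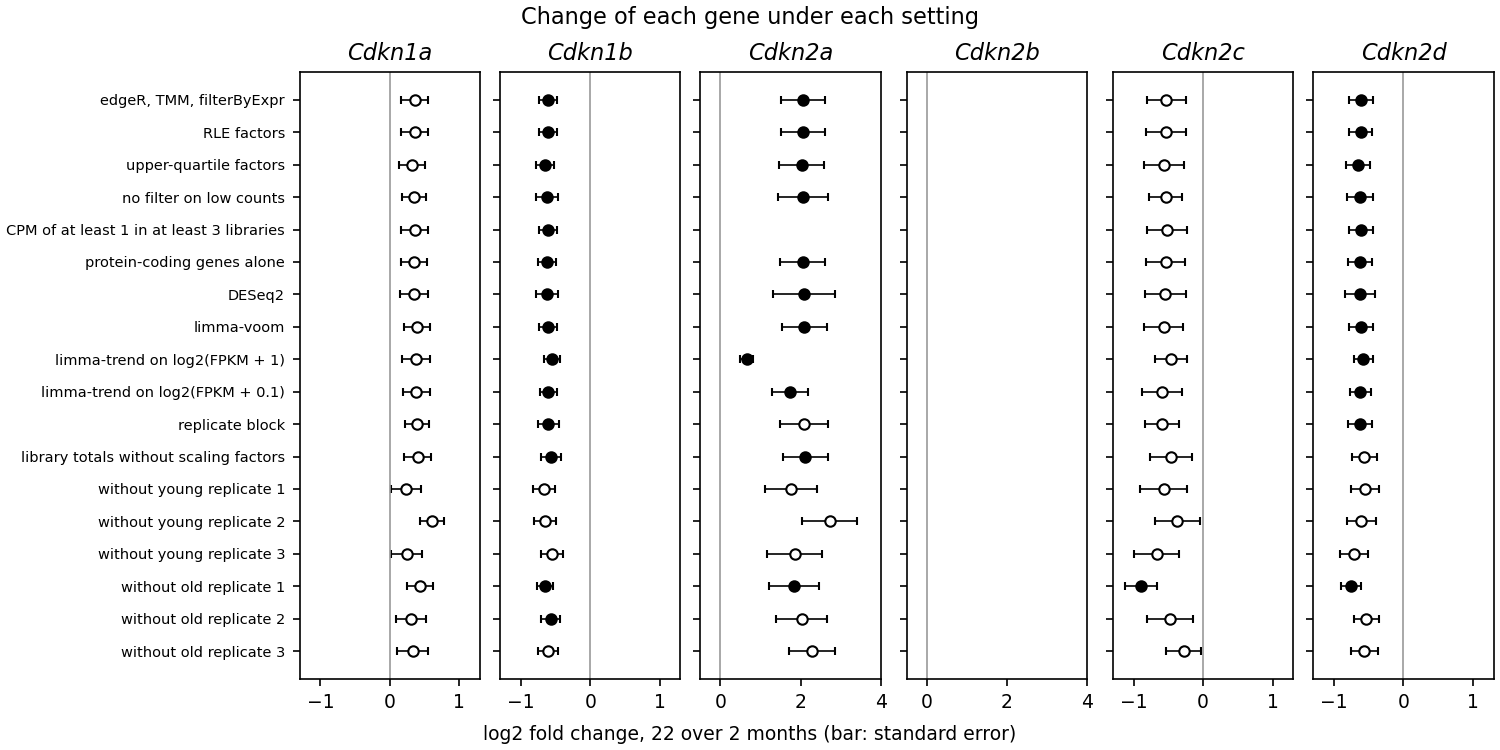
Log2 fold change of 22 over 2 months with its SE (horizontal axes) under each setting for Cdkn1a, Cdkn1b, Cdkn2a, Cdkn2c and Cdkn2d. Points are filled where the adjusted p was under 0.05 and blank where a setting gave no test. The panel of Cdkn2b holds no points, and its fits are given in the text. Directions of the genes shown hold in every setting, while the calls of Cdkn1b, Cdkn2a and Cdkn2d end when single libraries are left out.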

How the data were processed

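HISAT2 (alignment), featureCounts of Subread (counting) and the build GRCm38.p6 are named in the submitters' processing notes. Their versions and the annotation and strand settings were not stated. The deposited counts are whole reads per gene, and the authors' FPKM values cover 13170 genes. Gene models without a name (571, 0.295 to 0.369% of counts) were left out, and 43629 remained. Counts were analysed with edgeR 4.0.16 in R 4.3.3 (filterByExpr with a minimum count of 10, TMM factors, quasi-likelihood F test, Benjamini-Hochberg adjustment, threshold 0.05). The biological coefficient of variation was 0.187. The SE of a log2 fold change is its size over the root of the F statistic. Gene positions come from GENCODE M21. The tests across genes were tested on simulated data. Alternatives used DESeq2 1.42.0, limma 3.58.1, other factors and filters, log2(FPKM + 1) and log2(FPKM + 0.1), and each library left out.

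The 6 genes and all lists were chosen with earlier results of these data known. From each list the 3 called genes with the smallest p were named, or the 1 with the smallest p where none was called, with 12 cell cycle, p53 and Polycomb genes whatever their values, the nearest protein-coding neighbours and the 3 most similar profiles. The result of 1 gene that this rule names is not reported here. The library totals without scaling factors were added after seeing the data.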

Additional observations from a re-analysis of the deposited data

How the results depend on the processing

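With 3 hearts per age and 2 to 24 reads per library for Cdkn2a and Cdkn2b, counting error limits what can be said of these RNAs. Leaving out 1 library gave 539 to 5570 called genes over all genes tested and 7 to 47 over the 8 lists. The log2 fold change then ranged from −0.66 to −0.54 for Cdkn1b, from 1.76 to 2.72 for Cdkn2a, from −0.76 to −0.54 for Cdkn2d, from −0.89 to −0.28 for Cdkn2c, from 0.23 to 0.61 for Cdkn1a and, as the ratio of mean CPM, from 1.58 to 2.11 for Cdkn2b. All directions of the 6 genes held in every setting run. Under the other settings (other factors, filters and tools), Cdkn2d missed the threshold with library totals alone (−0.56), and no further call of the 5 tested members changed apart from the block below. A filter of at least 1 CPM in 3 libraries removed Cdkn2a, and log2(FPKM + 1), which shrinks low values, gave 0.66 for it. The replicate numbers did not pair the hearts (same-number correlations −0.09, −0.07 and 0.03). In a fit with a replicate block, Cdkn2a was at 2.08 (edgeR adjusted p = 0.0514), Top2a at −2.05 (0.0533) and Ubac1 at −0.50 (0.0638), each past the threshold without the block, and 1774 genes were called. Values of 4 genes that were not called changed sign when 1 library was left out, with ranges of −0.23 to 0.13 for Cdk2, −0.20 to 0.019 for Ccnd3, −0.15 to 0.22 for Rb1 and −0.72 to 0.012 for Mki67. Rb1 was also at −0.0021 with upper-quartile factors and −0.00048 on log2(FPKM + 0.1). The causes were not tested.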
